A study of Mus musculus with 23 samples.

Results

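The subunits of Polycomb repressive complex 2 (PRC2) were followed through a mouse expression array series on the tumour suppressor Snf5, which is Smarcb1 in the annotation, and the histone methyltransferase Ezh2. The members were the 10 genes Ezh2, Ezh1, Eed, Suz12, Rbbp4, Rbbp7, Jarid2, Mtf2, Phf1 and Phf19, out of 12393 genes with a probe set of their own. They were measured by 26 of 22626 probe sets, counting each probe set that the platform annotation assigned to that symbol and no other. Where a gene had several, its main probe set was that with the greatest average log2 intensity across the 23 arrays. The groups were 3 arrays of Ezh2-deficient mouse embryonic fibroblasts (MEFs, primary connective tissue cells of the embryo) with 3 arrays of WT MEFs, 3 arrays of Snf5 Ezh2-deficient MEFs with 3 arrays of WT MEFs, and 5 arrays of purified lymphoma CD8+ T cells, Snf5-deficient, with 6 arrays of CD8+ T cells from WT mice. All MEFs came from embryos at E13.5, and the lymphoma and CD8+ T cell samples came from mice 10 to 15 weeks old. The MEFs had been inactivated conditionally for Ezh2 alone or for Snf5 and Ezh2 together, and no group with Snf5 lost alone was among the MEFs. The sources used here give neither the Cre driver nor the exons removed, nor say whether animals were pooled. The comparisons address how the loss of Snf5, of Ezh2 or of both changes gene expression, and here how it goes with the transcripts of PRC2 itself.

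PRC2 places methyl groups on lysine 27 of histone H3, a mark of silenced genes. Its catalytic subunit is either Ezh2, which is typical of dividing cells, or its paralogue Ezh1, which is typical of resting and differentiated cells. Eed binds the methylated mark and stimulates the enzyme, Suz12 is the scaffold on which the complex is built, and the interchangeable histone-binding proteins Rbbp4 and Rbbp7 are shared with deacetylase, remodelling and chromatin assembly complexes. Accessory subunits steer the core to its targets: Jarid2 joins one form of PRC2, and the Polycomb-like proteins Phf1, Mtf2 and Phf19 join another. In lymphocytes, Ezh2 is known for being high during proliferation.

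In the promoters of 3 of the 10 members a sequence of the E2F type was found, the letters through which cell cycle transcription factors are known to bind. The motifs searched, on both strands, were TTTCCCGC (in 1.07% of all promoters), TTTCGCGC (0.323%), TTTGCCGC (0.441%) and TTTGGCGC (0.514%). At least one of the 4 stood in 3 of 12 annotated promoters of the members (25%), in 7 of 32 promoters of a list of proliferation genes (21.9%) and in 744 of 32851 promoters in all (2.26%), each a window of 300 bases that runs from 250 before to 50 after the start. The 3 promoters are printed because they include those of both members that were higher in the lymphomas, Ezh2 and Phf19. RefSeq sequence of build GRCm38.p6 is given on the gene's own strand for the first 280 bases of the window, with the motif in capitals. Ezh2 lies on the minus strand, and the printed stretch is chr6:47595001-47595280. Phf19 also lies on the minus strand, at chr2:34913947-34914226, and its motif reads TTTCCCGC on the opposite strand. Suz12 lies on the plus strand, at chr11:79992856-79993135.
Ezh2: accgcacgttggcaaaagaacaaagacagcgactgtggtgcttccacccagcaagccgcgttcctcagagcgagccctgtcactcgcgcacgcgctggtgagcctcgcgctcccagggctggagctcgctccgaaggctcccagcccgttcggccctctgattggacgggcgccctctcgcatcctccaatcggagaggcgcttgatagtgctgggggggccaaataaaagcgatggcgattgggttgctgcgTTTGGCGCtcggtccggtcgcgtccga
Phf19: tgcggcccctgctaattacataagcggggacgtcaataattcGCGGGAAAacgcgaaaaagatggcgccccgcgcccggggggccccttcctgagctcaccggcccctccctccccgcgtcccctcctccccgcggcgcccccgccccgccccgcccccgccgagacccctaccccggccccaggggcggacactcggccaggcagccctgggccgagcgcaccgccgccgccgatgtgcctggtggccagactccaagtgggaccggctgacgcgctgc
Suz12: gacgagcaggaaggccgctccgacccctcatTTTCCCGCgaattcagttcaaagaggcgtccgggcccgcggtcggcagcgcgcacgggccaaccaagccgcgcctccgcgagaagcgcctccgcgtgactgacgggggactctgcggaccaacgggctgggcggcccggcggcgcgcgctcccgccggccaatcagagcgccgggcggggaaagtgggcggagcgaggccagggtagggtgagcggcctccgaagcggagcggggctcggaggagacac
The motif ran from base 4 to base 11 after the start in Ezh2, at positions -208 to -201 relative to it in Phf19 and at -219 to -212 in Suz12. In the windows of Ezh1, Eed, Rbbp4, Rbbp7, Jarid2, Mtf2 and Phf1 none of these letters occurred. A match describes the sequence only.

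Several arrays stood apart. The control arrays of the 2 MEF sets were the same hybridisations summarised again: over 5732 bright probe sets, once an offset per probe set was taken away, the SD between arrays of the same number was 0.0219 to 0.0241, and that between arrays of different numbers was 0.135 to 0.151. Bright meant a mean log2 above 9 in the first summary, and Ezh2, Ezh1, Jarid2, Mtf2, Phf1 and Phf19 lay below that. These SDs therefore do not cover them. Ezh2 on WT MEF arrays 1 to 3 read 7.95, 7.81 and 7.86 in the first summary and 8.02, 8.07 and 8.02 in the second. The fit took the offset as exact. The control arrays were counted once, which left 9 distinct MEF arrays, and both MEF comparisons share their controls. Fibroblast markers averaged 9.53 to 10.12 in the MEF arrays, and Ezh2-deficient arrays 2 and 3 had a Y-linked Eif2s3y value of 3.65 and 4.00 against 8.24 in array 1 and 8.11 to 8.25 in the WT MEFs. The labels call the replicates biological without saying which cultures, embryos or mice they came from, and the p-values cover the spread between these arrays alone. RNA was from whole samples, so a smaller share of cells of a type and less RNA per cell cannot be told apart.

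Of the T cell arrays, WT CD8 arrays 1 and 6 went against their label. Cd8b1, a chain of the CD8 receptor, was at 9.35 and 8.07 there, at 12.53 to 13.61 in the other 4 WT CD8 arrays and at 11.97 to 12.90 in the lymphomas. CD8 T cell markers (8 genes) averaged 10.62 and 10.25 in arrays 1 and 6 and 12.31 to 12.78 in the other WT CD8 arrays. In the lymphomas they averaged 11.20 to 12.49. B cell markers (9 measured genes) averaged 10.69 and 10.60 in these arrays, against 6.77 to 7.02 in lymphomas and 7.18 to 7.83 in the other WT CD8 arrays. Myeloid markers (10 genes) averaged 12.59 and 12.53 in arrays 1 and 6, 8.75 to 10.97 in the lymphomas and 6.62 to 8.79 in the other WT CD8 arrays. WT CD8 arrays 3 and 4 differed in another way: 36 proliferation genes averaged 8.96 and 9.23 there, against 11.56 to 11.81 in lymphomas and 10.80 to 11.62 in the other WT CD8 arrays. The lymphoma tests are therefore also given without WT CD8 arrays 1 and 6, a setting chosen after these values were seen. Of the 8 CD8 T cell markers, Cd2 was lower in lymphomas in that setting (-4.54, adjusted p = 0.00997) and the other 7 did not pass. CD4 T and NK cell markers (4 genes) averaged 5.03 to 5.66 in the lymphomas, below the 6.34 to 7.72 of all WT CD8 arrays. Erythroid markers (5 genes) averaged 4.93 to 7.06 in lymphomas, 5.15 and 5.50 in WT CD8 arrays 4 and 3, and 7.68 to 8.75 in the other 4. The T cell groups also differed in sex-linked transcripts. Xist, expressed from the inactive X chromosome, was at 4.85 to 5.44 in lymphomas 2, 3 and 4, at 13.19 and 12.25 in lymphomas 1 and 5, and at 12.85 to 13.51 in all WT CD8 arrays. The 4 measured sex markers, Xist and Y-linked genes, averaged 8.38 and 6.76 in WT CD8 arrays 3 and 4. In the other 4 WT CD8 arrays they averaged 5.70 to 6.11. Whether arrays 3 and 4 hold cells of both sexes was not tested. The part of these transcripts in the lymphoma differences was tested only with Eif2s3y as a covariate, chosen after seeing the data: Ezh2 and Phf19 were then called higher (1.91 and 2.29) and Phf1 and Jarid2 lower (-2.31 and -0.97), where 7.26% of all genes were higher and 6.75% lower.

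**Figure D1:**
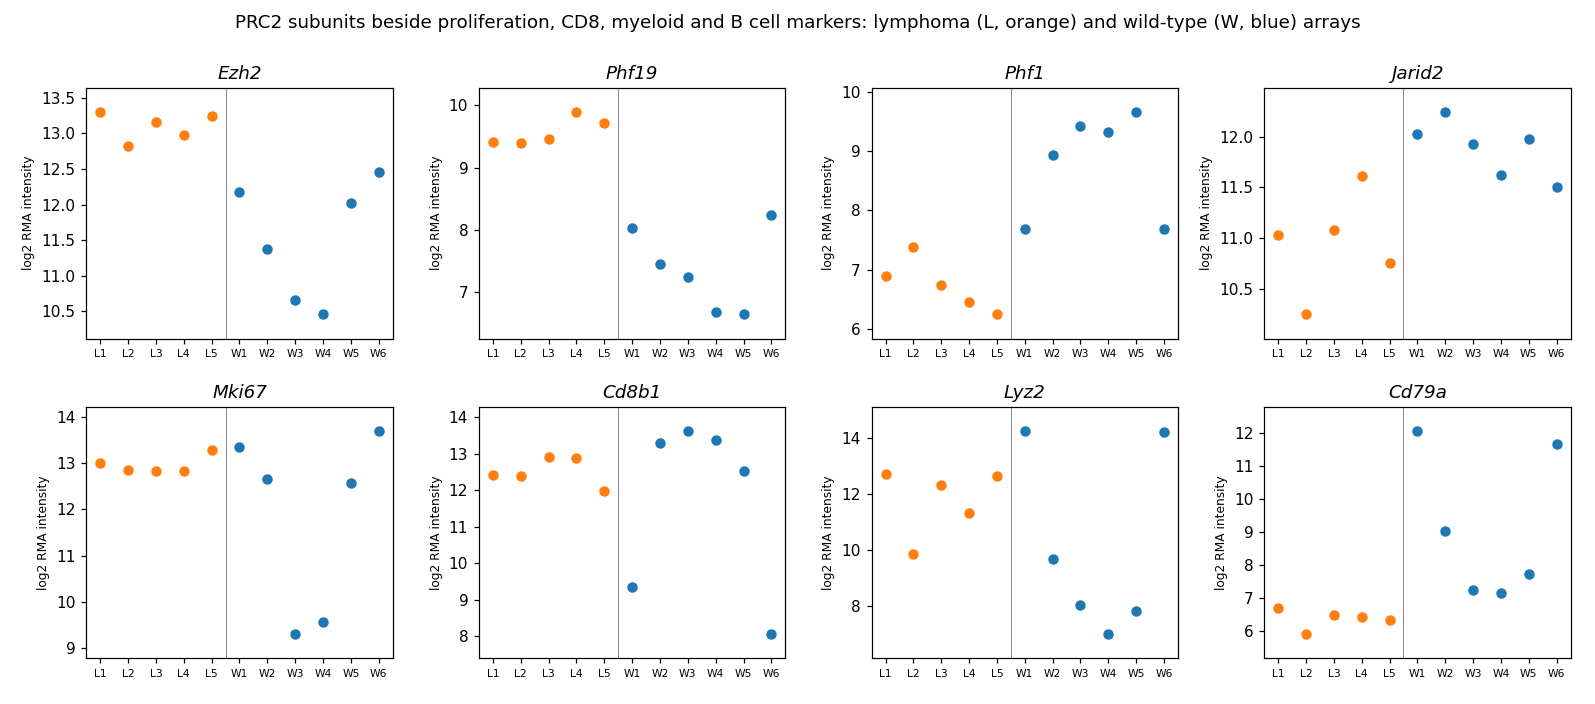
Log2 RMA intensity on each of 5 lymphoma (L, orange) and 6 WT CD8 arrays (W, blue) for Ezh2, Phf19, Phf1 and Jarid2 in the upper row and for the markers Mki67 (dividing cells), Cd8b1 (CD8 T cells), Lyz2 (myeloid cells) and Cd79a (B cells) in the lower row. Cd8b1 is lowest on W1 and W6 (9.35 and 8.07), where Lyz2 and Cd79a are highest, and Mki67 is lowest on W3 and W4 (9.32 and 9.56).

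The 3 sets of arrays were summarised apart, so levels across sets were compared only as a percentile among all probe sets of the same array, without a test. Ezh2 spanned the widest range: its percentile averaged 96.8 in lymphomas (95.2 to 97.7 over the arrays), 84.1 in WT CD8 T cells (72.0 to 93.5), 61.2 and 57.8 in the 2 summaries of the WT MEFs, 37.3 in Snf5 Ezh2-deficient MEFs (33.1 to 41.1) and 26.8 in Ezh2-deficient MEFs (25.8 to 28.1). No neighbours in that order overlapped. Rbbp4 and Rbbp7 were bright in every group, with mean percentiles of 95.7 to 99.2 and 96.5 to 98.2. Eed averaged 92.9 in lymphomas and 91.5 in WT CD8 cells, with 77.0 to 83.0 in the MEF groups, and Suz12 averaged 92.8 and 91.6 in the T cell groups with 72.5 to 78.0 in the MEF groups. Phf1 had its lowest rank in lymphomas, at a mean percentile of 38.9, against 55.2 in WT CD8 cells and 62.1 to 63.4 in the MEF groups. No main value of a member lay in the lowest 25% of its array.

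In Ezh2-deficient MEFs, Ezh2 itself fell more than 4-fold, while the transcript of its paralogue Ezh1 passed no threshold and the interval of its change was narrow. Rbbp4 also fell, by a small amount. No member rose, and the other 7 did not pass the test. Of all genes, 1.02% were called higher and 2.47% lower in this comparison, and of the 10 members 0 were higher and 2 lower, at a limma p below 0.05 after Benjamini-Hochberg adjustment over all probe sets. The members had a median log2 change of -0.15, and all genes had one of 0.00.

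Ezh2, the targeted gene, had log2 values of 5.81, 5.65 and 5.63 in Ezh2-deficient MEFs, against 7.95, 7.81 and 7.86 in WT MEFs. All 3 mutant arrays lay far below all controls, with means of 5.69 ± 0.10 and 7.87 ± 0.08 (SD, n = 3 each). The log2 change was -2.18 (95% interval -2.44 to -1.92), 4.53-fold lower, with an adjusted p of 9.32e-06. An exact two-sided permutation gave p = 0.1, the smallest that 3 against 3 arrays allow. Whether the single Ezh2 probe set lies in the deleted part of the gene was not tested, and a residual level cannot be told apart from transcript outside it.

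Ezh1 read 7.39, 7.46 and 7.62 in Ezh2-deficient MEFs and 7.45, 7.43 and 7.50 in WT MEFs. The mutant values lay on both sides of the controls, and the change of 0.03 had an interval of -0.13 to 0.20 (adjusted p = 0.827). The difference Ezh2 minus Ezh1 within an array was -1.80 ± 0.21 in Ezh2-deficient MEFs and 0.41 ± 0.08 in WT MEFs (SD, n = 3 each). This difference of -2.21 had an exact permutation p = 0.1, or 0.12 after adjustment over 6 such tests. A second Ezh1 probe set changed by 0.09 (adjusted p = 0.546).

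Among the other core subunits, Rbbp4 had 11.45, 11.44 and 11.46 in Ezh2-deficient MEFs, against 11.69, 11.72 and 11.62 in WT MEFs. The groups did not overlap, and the change was -0.23 (SE 0.0530, adjusted p = 0.0483). The call was lost without any 1 of the WT or Ezh2-deficient arrays and without array 1 or 3 of the Snf5 Ezh2-deficient MEFs, with adjusted p from 0.0165 to 0.924 over its 20 alternatives. The other Rbbp4 probe sets, at -0.19 (adjusted p = 0.494) and -0.27 (adjusted p = 0.119), did not pass. Suz12 had 8.78, 8.85 and 8.76 in Ezh2-deficient MEFs and 8.99, 9.15 and 8.98 in WT MEFs, also without overlap, yet its change of -0.24 missed the threshold (adjusted p = 0.0735). Suz12 passed with array weights (adjusted p = 0.0445) and with 12 arrays and separate controls (adjusted p = 0.0489). That 12-array fit counts the repeated control hybridisations as separate arrays, so its p-value rests on repeats. The next 2 Suz12 probe sets changed by -0.25 (adjusted p = 0.0663) and -0.30 (adjusted p = 0.0504). Its remaining probe sets changed by -0.22 (adjusted p = 0.205), -0.08 (0.631) and 0.13 (0.526). Rbbp7 changed by -0.18 (adjusted p = 0.0915) and passed with 50 added before the log (adjusted p = 0.0321), and Eed changed by 0.00 with an interval of -0.18 to 0.18.

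The accessory subunits did not pass the test in the Ezh2-deficient MEFs. Their changes were -0.11 for Jarid2 (adjusted p = 0.506), -0.16 for Mtf2 (0.175), -0.14 for Phf1 (0.39) and 0.10 for Phf19 (0.587). The widest of these intervals, that of Phf19, ran from -0.13 to 0.33, so a change of the size of that of Ezh2 lies outside all of them. Over all 26 probe sets 2 were called, the main ones of Ezh2 and Rbbp4, both lower. On main probe sets, 1.02% of all genes were higher and 2.47% lower.

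Proliferation genes moved with this comparison. Of 36 measured, 22 fell and 0 rose, with a median of -0.47, such as Tk1 (-0.81), a nucleotide kinase of S phase, Mcm5 (-0.76), a subunit of the replicative helicase, and Mki67 (-0.68). The array means of the list were 7.77 to 7.96 in Ezh2-deficient MEFs and 8.19 to 8.44 in WT MEFs. With that mean as a covariate, the Ezh2 change was -1.92 and no longer past the threshold (adjusted p = 0.0746, with 4.92e-07 to 0.0746 over its 20 alternatives). That fit called 0.00807% of all genes, 1 of 12393, in each direction. The changes of Rbbp4 (-0.16) and Suz12 (-0.12) did not pass there. Because the list means of the 2 groups did not overlap, that fit cannot separate genotype from proliferation.

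**Figure D2:**
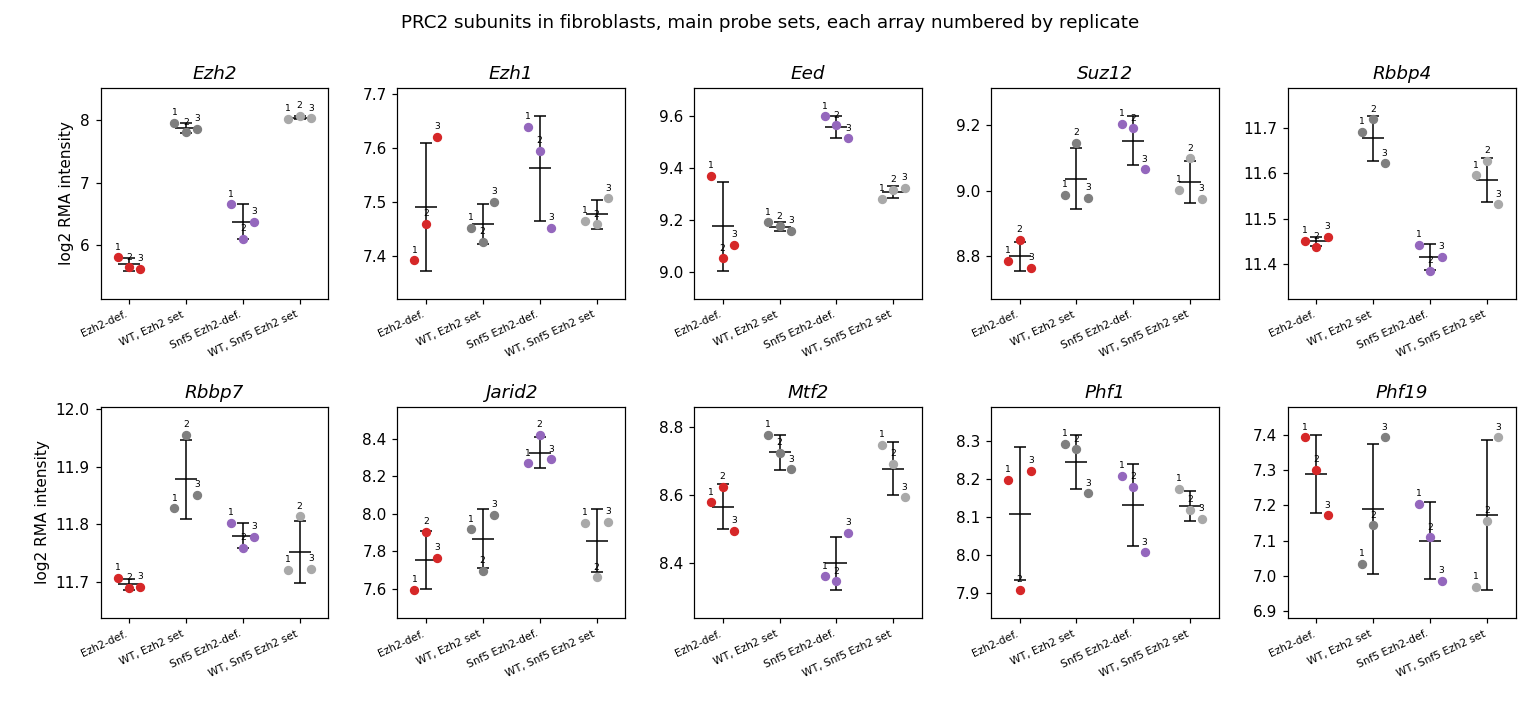
Log2 RMA intensity of the main probe set of each member on every MEF array (points numbered by replicate, one panel a gene), with bars for the mean and SD of each group of 3. Each mutant group stands left of the WT MEFs of its own set. Ezh2 is the member whose mutant arrays lie farthest below their controls (5.63 to 5.81 against 7.81 to 7.95 in the Ezh2 set), and Jarid2 lies above its controls in Snf5 Ezh2-deficient MEFs (8.27 to 8.42 against 7.66 to 7.96).

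When Snf5 was lost together with Ezh2, more members were called, in both directions, and so were more of all genes. Ezh2 fell 3.16-fold, Jarid2 rose 1.38-fold, and Eed rose while Mtf2 and Rbbp4 fell by smaller amounts. Of the 10 members 2 were called higher and 3 lower. Of all genes, 13.2% were higher and 14.3% lower, against 1.02% and 2.47% with Ezh2 lost alone. The median change of the members was 0.02, against 0.00 over all genes.

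In Snf5 Ezh2-deficient MEFs, Smarcb1 had 6.77, 6.56 and 6.83, against 9.08, 9.22 and 9.25 in WT MEFs, a change of -2.46 (adjusted p = 1.01e-07). Ezh2 had 6.65, 6.10 and 6.38 in Snf5 Ezh2-deficient MEFs, against 8.02, 8.07 and 8.02 in WT MEFs. Both targeted genes were thus lower on each mutant array. For Ezh2 the means were 6.38 ± 0.28 and 8.04 ± 0.03 (SD, n = 3 each), the log2 change -1.66 (95% interval -1.92 to -1.40) and the adjusted p 8.99e-06, with an exact permutation p = 0.1. Ezh1 had 7.64, 7.60 and 7.45 in the mutant, against 7.47, 7.46 and 7.51 in WT MEFs, and its change of 0.09 did not pass (interval -0.08 to 0.25, adjusted p = 0.466). Ezh2 minus Ezh1 was -1.18 ± 0.27 in Snf5 Ezh2-deficient MEFs and 0.56 ± 0.05 in WT MEFs (SD, n = 3 each, exact permutation p = 0.1, adjusted 0.12).

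Jarid2, the accessory subunit named for its jumonji domain, had 8.27, 8.42 and 8.29 in Snf5 Ezh2-deficient MEFs, against 7.95, 7.66 and 7.96 in WT MEFs. Every mutant array was above every control, and the change was 0.47 (95% interval 0.25 to 0.69, adjusted p = 0.00557). Its other 2 probe sets rose as well, by 0.50 (adjusted p = 0.000429) and 0.29 (adjusted p = 0.0435). The call held under all 20 alternatives, with adjusted p from 0.000739 to 0.0258.

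Mtf2, a Polycomb-like protein that binds unmethylated CpG islands, had 8.36, 8.34 and 8.49 in Snf5 Ezh2-deficient MEFs, against 8.75, 8.69 and 8.59 in WT MEFs. The groups did not overlap, and the change was -0.28 (95% interval -0.43 to -0.14, adjusted p = 0.0094). Of its 4 probe sets 3 fell, the others by -0.30 (adjusted p = 0.0137) and -0.46 (adjusted p = 0.0157), and 1 gave -0.05 (adjusted p = 0.771). The call of the main probe set held under all 20 alternatives (adjusted p 0.00476 to 0.0427).

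Eed, the reader of the methyl mark, had 9.60, 9.57 and 9.52 in Snf5 Ezh2-deficient MEFs, against 9.28, 9.32 and 9.32 in WT MEFs. Its change of 0.25 (adjusted p = 0.0409) was lost without any 1 of the WT or Snf5 Ezh2-deficient arrays, with adjusted p from 0.00866 to 0.112 over 20 alternatives, and its second probe set, at 0.21, did not pass (adjusted p = 0.131). Rbbp4 had 11.44, 11.39 and 11.42, against 11.60, 11.63 and 11.53 in WT MEFs, a change of -0.17 (adjusted p = 0.0379). Without WT array 1 or 2, Ezh2-deficient array 1 or any Snf5 Ezh2-deficient array it was lost, with adjusted p from 0.00548 to 0.128. The other Rbbp4 probe sets, at -0.35 (adjusted p = 0.149) and -0.17 (adjusted p = 0.212), did not pass. Suz12 (0.13, adjusted p = 0.19), Rbbp7 (0.03, 0.767), Phf1 (0.00, 0.987) and Phf19 (-0.07, 0.671) did not pass on their main probe sets. The second Rbbp7 probe set rose by 0.18 (adjusted p = 0.037). In all, 5 of 26 probe sets were higher and 5 lower. On main probe sets, 13.2% of all genes were higher and 14.3% lower. All 3 probe sets of Jarid2 and 3 of the 4 of Mtf2 are among those called, so the counts repeat genes.

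Set against each other in the same fit, the changes in Snf5 Ezh2-deficient MEFs exceeded those in Ezh2-deficient MEFs for 5 members and fell short for 0, where 16.3% of all genes differed upward and 13.6% downward. The difference was 0.58 for Jarid2 (95% interval 0.36 to 0.80, adjusted p = 0.00174), 0.52 for Ezh2 (0.26 to 0.78, 0.00812), 0.37 for Suz12 (0.22 to 0.51, 0.00228), 0.25 for Eed (0.07 to 0.43, 0.0397) and 0.21 for Rbbp7 (0.09 to 0.33, 0.0162). The loss of Ezh2 transcript was thus smaller where Snf5 had been lost too. The second Eed probe set differed by -0.06 (adjusted p = 0.678), and the mean of both by 0.10 (adjusted p = 0.378). The other Suz12 probe sets differed by 0.37 (adjusted p = 0.00205), 0.40 (0.00242), 0.19 (0.174), 0.19 (0.143) and -0.02 (0.897). The other probe sets of Jarid2 (0.68 and 0.57) and Rbbp7 (0.25) passed. Proliferation genes differed upward too, with 29 of 36 higher in Snf5 Ezh2-deficient than in Ezh2-deficient MEFs, 0 lower and a median difference of 0.57. With the mean of that list as a covariate, 1.23% of all genes were called higher and 0.557% lower, and none of the 5 differences passed. They were 0.79 for Jarid2, 0.31 for Eed, 0.26 for Ezh2, 0.24 for Suz12 and 0.11 for Rbbp7 in that fit. The list means were 7.77 to 7.96 in Ezh2-deficient and 8.18 to 8.42 in Snf5 Ezh2-deficient arrays, without overlap. That fit therefore cannot separate genotype from proliferation. With Eif2s3y as a covariate, 8.91% of all genes were called higher and 6.17% lower. The differences of Ezh2 (0.41, adjusted p = 0.15), Eed (0.06, 0.69) and Rbbp7 (0.20, 0.144) did not pass there. Of these, Rbbp7 is X-linked. Over 19 alternatives the adjusted p ran from 0.0014 to 0.72 for Ezh2, from 8.1e-05 to 0.132 for Jarid2, from 0.00181 to 0.497 for Suz12, from 0.00389 to 0.691 for Eed and from 0.00301 to 0.754 for Rbbp7. Eed kept its call without Ezh2-deficient array 1 and lost it without any other single array. Rbbp7 lost its call without Snf5 Ezh2-deficient array 1 (adjusted p = 0.0521). There 3 members passed in place of 5, and 13.8% of all genes were called higher in place of 16.3%.

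**Figure D3:**
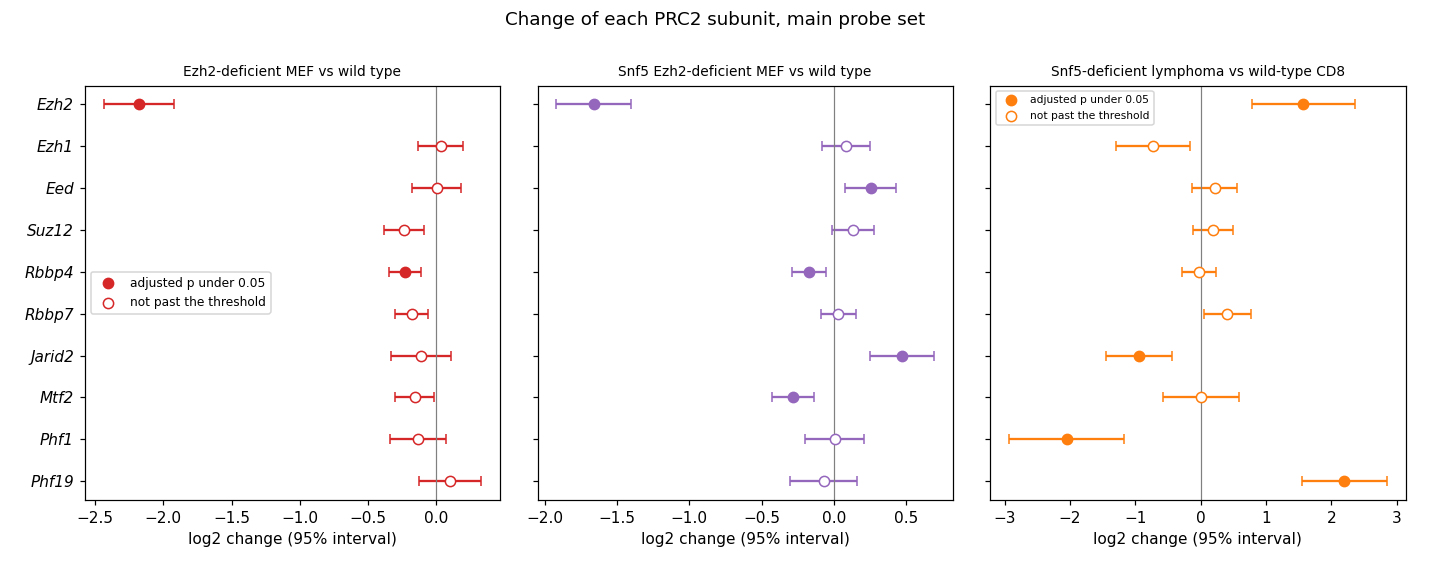
Log2 change of the main probe set of each member (x axis, with the 95% interval) in Ezh2-deficient MEFs, Snf5 Ezh2-deficient MEFs and Snf5-deficient lymphomas, each against its own wild type. Filled points passed an adjusted p of 0.05, which Ezh2 did in all 3 comparisons (-2.18, -1.66 and 1.57), and the x axes differ in scale.

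In Snf5-deficient lymphomas 4 members passed the test against WT CD8+ T cells. Ezh2 rose 2.98-fold and Phf19 4.59-fold, while Phf1 fell 4.14-fold and Jarid2 1.92-fold. Eed, Suz12, Rbbp4 and Rbbp7 on their main probe sets, Mtf2 and Ezh1 did not pass the test. Of the 10 members 2 were called higher and 2 lower, where 9.13% of all genes were higher and 7.71% lower. Without WT CD8 arrays 1 and 6 there were 3 higher and 3 lower, where 13.2% of all genes were called in each direction. The median change of the members was 0.10 with all arrays and 0.09 without those arrays, against -0.07 and -0.11 over all genes.

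Smarcb1 was at 8.30, 8.49, 5.81, 5.64 and 8.67 in lymphomas 1 to 5 and at 11.23, 11.48, 10.38, 10.51, 11.46 and 11.12 in WT CD8 arrays 1 to 6. It was lower on each lymphoma array, by -3.65 (adjusted p = 0.00244), and by -3.58 without WT CD8 arrays 1 and 6 (adjusted p = 0.00678).

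Ezh2 had 13.30, 12.82, 13.16, 12.97 and 13.24 in the lymphomas, against 12.17, 11.38, 10.66, 10.46, 12.02 and 12.46 in the WT CD8 arrays. Every lymphoma lay above every WT CD8 array, and the lymphomas were close together (13.10 ± 0.20, SD, n = 5) where the WT CD8 arrays were spread (11.52 ± 0.83, SD, n = 6). The change was 1.57 (95% interval 0.79 to 2.36, adjusted p = 0.0133), with an exact two-sided permutation p = 0.00433. Without WT CD8 arrays 1 and 6 it was 1.97 (adjusted p = 0.00176, exact permutation p = 0.00794, the smallest that 5 against 4 allow). The lowest Ezh2 values in WT CD8 cells were those of arrays 3 and 4, which also had the lowest proliferation genes, and without these 2 arrays the change was 1.09 (adjusted p = 0.0153). With the proliferation mean as a covariate it was 0.75 (adjusted p = 0.0301). The call held under all 22 alternatives, with adjusted p from 0.000877 to 0.036.

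The paralogue Ezh1 had 8.63, 8.46, 9.22, 9.12 and 8.86 in lymphomas, against 8.91, 9.46, 9.96, 10.23, 9.82 and 9.13 in WT CD8 arrays. The groups overlapped, and the change of -0.73 (95% interval -1.29 to -0.17) did not pass (adjusted p = 0.0782). Without WT CD8 arrays 1 and 6, Ezh1 fell by 1.01 on the log2 scale (adjusted p = 0.00863), and without WT CD8 array 1 alone it passed as well (adjusted p = 0.031), with 0.00863 to 0.505 over 22 alternatives. Within an array, Ezh2 minus Ezh1 was 4.67, 4.36, 3.95, 3.85 and 4.38 in lymphomas and 3.26, 1.92, 0.70, 0.22, 2.19 and 3.32 in WT CD8 arrays. The 2 groups did not overlap. Their means were 4.24 ± 0.34 (SD, n = 5) and 1.94 ± 1.28 (SD, n = 6), with an exact permutation p = 0.00649, adjusted to 0.026 over 6 tests. Without WT CD8 arrays 1 and 6 the difference of means was 2.98 in place of 2.30 (exact permutation p = 0.00794). This shows unequal change of the 2 transcripts and gives no ratio of their amounts.

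Phf19, the Polycomb-like subunit that binds histone H3 methylated on lysine 36, had 9.42, 9.40, 9.46, 9.89 and 9.71 in lymphomas, against 8.02, 7.44, 7.24, 6.68, 6.64 and 8.24 in WT CD8 arrays. The lowest lymphoma stood more than 1 log2 unit above the highest WT CD8 array. The change was 2.20 (95% interval 1.55 to 2.85, adjusted p = 0.00088), and 2.57 without WT CD8 arrays 1 and 6 (adjusted p = 5.15e-05). It was 1.74 with the proliferation mean as a covariate (adjusted p = 0.00636) and 0.99 where both Phf19 probe sets were averaged. The second probe set of Phf19 read 5.36 to 5.87 in lymphomas and 5.26 to 6.17 in WT CD8 arrays and changed by -0.22 (adjusted p = 0.47), or -0.40 without WT CD8 arrays 1 and 6 (adjusted p = 0.117), so the rise rests on 1 of 2 probe sets. The main probe set passed under all 22 alternatives (adjusted p 5.15e-05 to 0.00845).

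Phf1, another Polycomb-like subunit with the same kind of histone-binding Tudor domain, had 6.89, 7.38, 6.74, 6.45 and 6.25 in lymphomas, against 7.70, 8.93, 9.42, 9.33, 9.66 and 7.70 in WT CD8 arrays. No lymphoma reached the lowest WT CD8 value, and that value belonged to arrays 1 and 6. The change was -2.05 (95% interval -2.93 to -1.17, adjusted p = 0.00667), and -2.60 without these arrays (adjusted p = 0.000128). With the proliferation mean as a covariate it was -1.37 (adjusted p = 0.0426), and all 22 alternatives passed (adjusted p 0.000128 to 0.0426). A single probe set measures Phf1.

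Mtf2, the third Polycomb-like protein, had 11.18, 11.28, 11.54, 11.82 and 11.65 in lymphomas and 11.01, 11.82, 12.07, 12.06, 11.04 and 10.90 in WT CD8 arrays. The lymphomas lay inside the range of the WT CD8 arrays, and the change of 0.01 had an interval of -0.57 to 0.58 (adjusted p = 0.989). It was -0.26 without WT CD8 arrays 1 and 6 (adjusted p = 0.44). The 3 Polycomb-like genes thus gave 3 different results in these tumours: 1 higher, 1 lower and 1 within the spread of the WT CD8 arrays.

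Jarid2 had 11.03, 10.25, 11.08, 11.61 and 10.75 in lymphomas, against 12.03, 12.25, 11.93, 11.62, 11.98 and 11.51 in WT CD8 arrays. Lymphoma 4 was about as high as WT CD8 arrays 4 and 6, and the other 4 lymphomas were below all WT CD8 arrays. The change was -0.94 (95% interval -1.45 to -0.43, adjusted p = 0.0198), and without WT CD8 arrays 1 and 6 Jarid2 fell by 1.0 on the log2 scale (adjusted p = 0.0225). Its other 2 probe sets fell by 1.23 (adjusted p = 0.0161) and 1.28 (adjusted p = 0.0026) on the log2 scale, and by 1.14 (adjusted p = 0.0378) and 1.37 (adjusted p = 0.00347) without those arrays. The main call was lost under 3 of 22 alternatives with the change about as large, among them -0.89 without lymphoma 5 (adjusted p = 0.0528) and -0.97 with the proliferation mean as a covariate (adjusted p = 0.0574), with adjusted p from 0.00528 to 0.0607 over all 22.

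**Figure D4:**
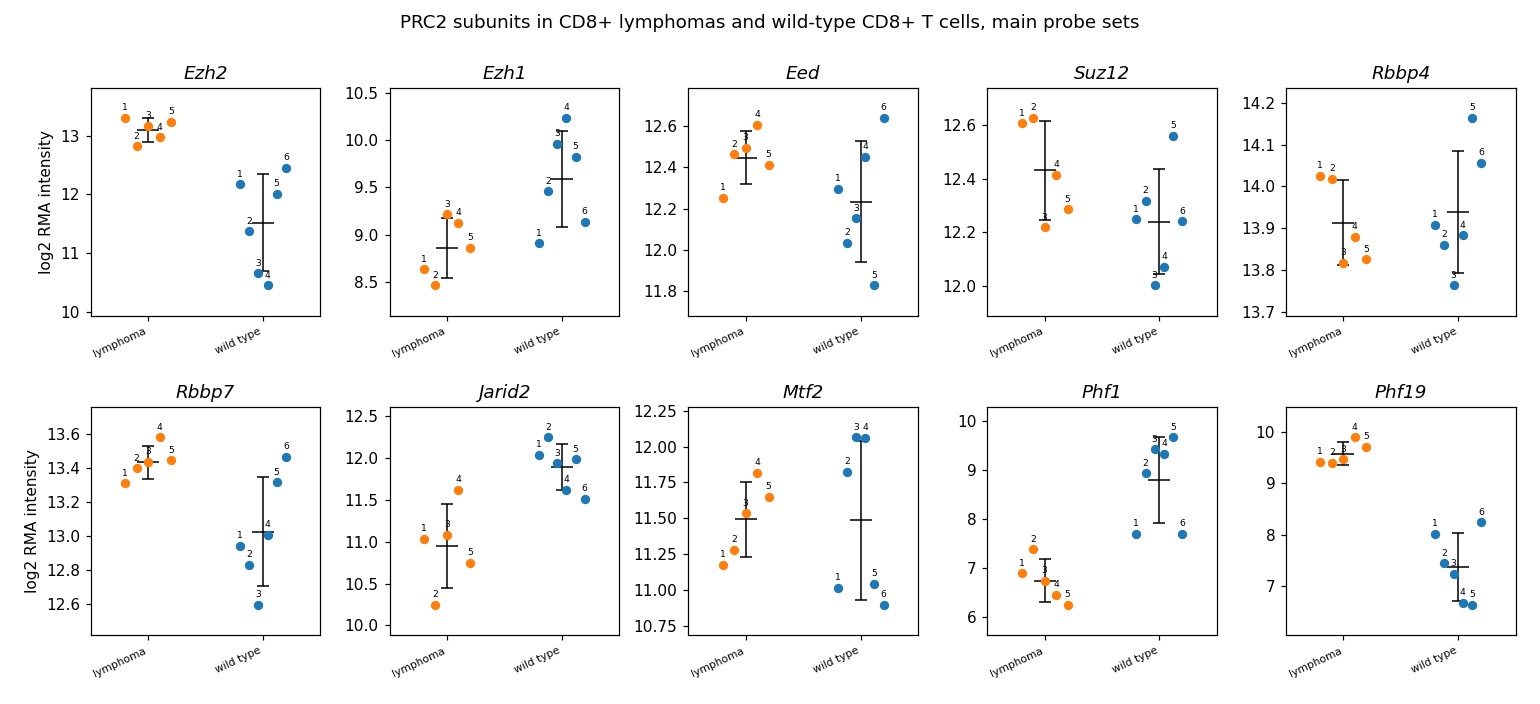
Log2 RMA intensity of the main probe set of each member on 5 lymphoma arrays (orange, left) and 6 WT CD8 arrays (blue, right), numbered by replicate, with bars for the mean and SD. Ezh2 and Phf19 lie above all WT CD8 arrays in every lymphoma, Phf1 lies below them, and for the other 7 members the 2 groups overlap.

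The remaining core subunits did not pass the test on their main probe sets. Eed had 12.25 to 12.61 in lymphomas and 11.83 to 12.64 in WT CD8 arrays, a change of 0.21 (adjusted p = 0.391). Suz12 averaged 12.43 ± 0.18 in lymphomas (SD, n = 5) and 12.24 ± 0.20 in WT CD8 arrays (SD, n = 6), a change of 0.19 (95% interval -0.12 to 0.50, adjusted p = 0.383), and its 6 probe sets gave 0.17 to 0.65, none past the threshold with or without WT CD8 arrays 1 and 6. Rbbp4 had 13.82 to 14.02 in lymphomas and 13.76 to 14.16 in WT CD8 arrays, a change of -0.03 with an interval of -0.28 to 0.23. The other Rbbp4 probe sets changed by 0.06 (adjusted p = 0.927) and by 0.81 (95% interval -0.31 to 1.94, adjusted p = 0.314). The main changes were, without WT CD8 arrays 1 and 6, 0.33 for Eed (adjusted p = 0.14), 0.19 for Suz12 (0.39) and 0.00 for Rbbp4.

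Rbbp7 had 13.31, 13.40, 13.43, 13.58 and 13.44 in lymphomas, against 12.94, 12.83, 12.59, 13.01, 13.31 and 13.46 in WT CD8 arrays. Lymphoma values overlapped with WT CD8 arrays 5 and 6 alone, and the change of 0.41 missed the threshold (adjusted p = 0.118). It passed at 0.50 without WT CD8 arrays 1 and 6 (adjusted p = 0.0498) and without array 6 alone (adjusted p = 0.0487), and at 0.52 with array weights (adjusted p = 0.0157), with 0.0157 to 0.533 over 22 alternatives. Rbbp7 is X-linked, and the part of the sex-linked difference in its value was not tested beyond the Eif2s3y covariate. Within an array, Rbbp7 minus Rbbp4 was -0.48 ± 0.18 in lymphomas (SD, n = 5) and -0.91 ± 0.19 in WT CD8 arrays (SD, n = 6), an unequal change of both genes by 0.43 (exact permutation p = 0.00866, adjusted 0.026). It was 0.50 without WT CD8 arrays 1 and 6 (exact permutation p = 0.0159). In MEFs the same quantity changed by 0.05 with Ezh2 lost (exact permutation p = 0.2) and by 0.20 with both genes lost (p = 0.1, the smallest possible). Other probe sets were left out of this quantity. In lymphomas 1 other Rbbp4 probe set changed by 0.81, above the 0.41 and 0.27 of the Rbbp7 probe sets, and none of these passed. An unequal change of the genes is thus not shown across probe sets.

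Of all 26 probe sets, 2 were higher and 4 lower in lymphomas, and 3 were higher and 6 lower without WT CD8 arrays 1 and 6. On main probe sets, 9.13% of all genes were higher and 7.71% lower, and 13.2% in each direction without those arrays. All 3 probe sets of Jarid2 are among the lower ones in both settings, so the counts repeat genes. No gene had probe sets called in opposite directions. The 2 probe sets of Eed changed by 0.21 and -0.48, neither past the threshold (adjusted p = 0.391 and 0.079). Without WT CD8 arrays 1 and 6 the second fell by 0.63 on the log2 scale (adjusted p = 0.0168), while the main one was at 0.33.

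**Figure D5:**
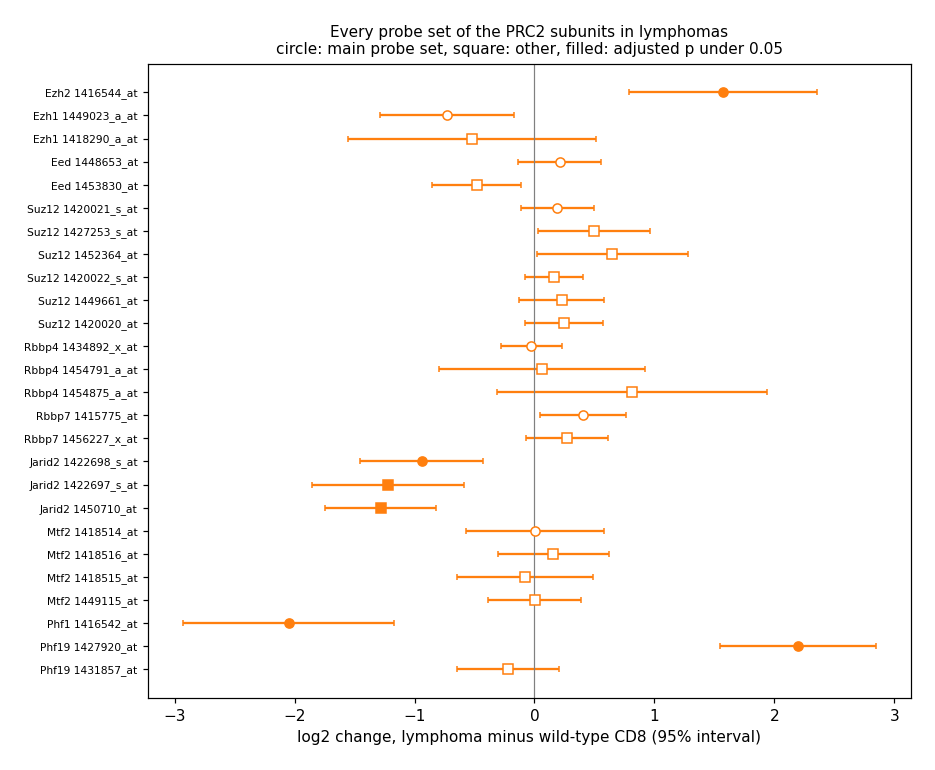
Log2 change of all 26 probe sets of the members in lymphomas minus WT CD8 T cells (x axis, with the 95% interval). Circles are main probe sets, squares the others, and filled symbols passed an adjusted p of 0.05: all 3 of Jarid2 were lower (-0.94, -1.23 and -1.28), whereas the 2 of Phf19 differed (2.20 and -0.22).

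Across the 11 T cell arrays, with the group means taken away, the genes most like Ezh2 by Pearson correlation were Mmp14 (r = 0.979), Csf2rb2 (0.978), Pkib (0.977), Blnk (0.975) and Cltc (0.975). Mki67 had an r of 0.93. Among the members, r was 0.63 for Rbbp7, 0.58 for Phf19, 0.55 for Rbbp4 and 0.45 for Suz12. It was negative for Mtf2 (-0.88), Ezh1 (-0.68) and Phf1 (-0.64). It was near 0 for Jarid2 (0.04) and Eed (0.02). These values describe 11 arrays that share the spread of the WT CD8 arrays described above. Without the 2 arrays farthest in Ezh2 they were -0.78 for Mtf2, -0.39 for Ezh1, 0.38 for Rbbp4 and 0.03 for Suz12. Without WT CD8 arrays 1 and 6 the 5 leading genes kept an r of 0.95 to 0.96 and Mtf2 one of -0.77. In that setting r was 0.64 for Suz12, 0.60 for Rbbp4 and 0.54 for Rbbp7. It was -0.34 for Ezh1, -0.02 for Phf1, -0.11 for Phf19 and -0.87 for Eed, so the values for Phf1, Phf19 and Eed rest on those 2 arrays.

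Other genes of the Polycomb system were counted on lists. Of 9 further PRC2-associated genes, 0 passed in Ezh2-deficient MEFs (median -0.07). In Snf5 Ezh2-deficient MEFs 1 rose, Yy1 (0.19, adjusted p = 0.0273), a DNA-binding protein. In lymphomas 1 rose, Epop (1.61, adjusted p = 0.00118, and 1.45 with an adjusted p of 0.00246 without WT CD8 arrays 1 and 6), a PRC2 partner that links the complex to elongins. Without those arrays Lcor, a corepressor found with PRC2, fell as well (-1.63, adjusted p = 0.00166). Aebp2, a zinc finger subunit of the form of PRC2 that holds Jarid2, changed by -0.12 and 0.00 in the MEF comparisons and by 0.44 in lymphomas (adjusted p = 0.0909), or 0.38 without WT CD8 arrays 1 and 6 (adjusted p = 0.144).

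Of the demethylases that remove the mark, Kdm6a and its Y-linked relative Uty were measured, and Kdm6b had no probe set of its own here. Kdm6a changed by -0.86 in lymphomas (adjusted p = 0.143) and fell by 1.24 on the log2 scale without WT CD8 arrays 1 and 6 (adjusted p = 0.0142). Kdm6a is X-linked, and Xist changed by -4.98 with all arrays (adjusted p = 0.0483) and by -5.01 without those 2 (adjusted p = 0.0757), Eif2s3y by 2.78 without them (adjusted p = 0.399). The part of the sex-linked difference in the Kdm6a value was not tested. Uty fell by 1.23 in Ezh2-deficient MEFs (adjusted p = 0.0365), the group that held 2 arrays with low Eif2s3y.

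Of 16 genes of Polycomb repressive complex 1 (PRC1), which binds the PRC2 mark, 1 rose and 0 fell in Ezh2-deficient MEFs, Bmi1 at 0.30 (adjusted p = 0.0365). In Snf5 Ezh2-deficient MEFs 5 rose and 3 fell, led by the ubiquitin ligase Rnf2 (1.18, adjusted p = 6.52e-06), Bmi1 (0.67, adjusted p = 5.68e-05) and Pcgf1 (-0.43, adjusted p = 0.00921). In lymphomas 0 passed, and without WT CD8 arrays 1 and 6 1 did, Pcgf2 at 1.21 (adjusted p = 0.0404).

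Of 20 genes of other complexes that hold Rbbp4 or Rbbp7, 0 rose and 4 fell in Ezh2-deficient MEFs (Sap30, Chaf1b, Hat1 and Mbd3), and 0 rose and 6 fell in Snf5 Ezh2-deficient MEFs, led by the remodeller Chd4 (-0.50, adjusted p = 0.000468). In lymphomas 3 rose and 1 fell, with the chromatin assembly subunit Chaf1b at 1.01 (adjusted p = 0.0219), the deacetylase Hdac1 at 0.90 (adjusted p = 0.00223) and Bptf at -0.89 (adjusted p = 0.0233). There were 5 and 3 without WT CD8 arrays 1 and 6, where Chaf1b was at 1.14 (adjusted p = 0.0176), Hdac1 at 0.92 (adjusted p = 0.00116) and Bptf at -1.11 (adjusted p = 0.00417).

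Of 24 textbook Polycomb targets, 2 rose and 3 fell in Ezh2-deficient MEFs, 5 rose and 5 fell in Snf5 Ezh2-deficient MEFs, and 4 rose and 0 fell in lymphomas (5 and 1 without WT CD8 arrays 1 and 6). Cdkn2a, the source of the cell cycle inhibitors p16Ink4a and p19Arf, had 8.23, 7.94 and 7.96 in Ezh2-deficient MEFs, against 7.34, 6.44 and 6.58 in WT MEFs, a change of 1.26 (adjusted p = 0.0223). In Snf5 Ezh2-deficient MEFs its change was 0.88 (adjusted p = 0.0175). It had 10.96, 10.65, 9.75, 10.22 and 11.01 in lymphomas, against 8.16, 4.32, 5.47, 5.16, 4.65 and 7.63 in WT CD8 arrays. The lymphomas were all higher, by 4.62 (adjusted p = 0.00151), and by 5.62 without WT CD8 arrays 1 and 6 (adjusted p = 8.31e-06). In tumours, Cdkn2a and Ezh2 were thus higher together, whereas in Ezh2-deficient MEFs Cdkn2a was higher and Ezh2 lower.

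Of 13 core genes of SWI/SNF, the remodelling complex that holds Smarcb1, 0 passed in Ezh2-deficient MEFs, 3 rose and 2 fell in Snf5 Ezh2-deficient MEFs, and 2 rose and 3 fell in lymphomas (1 and 3 without WT CD8 arrays 1 and 6). Smarcb1 was among those that fell in both of these comparisons. Proliferation genes in lymphomas had a median change of 1.17 with 6 of 36 higher and 0 lower, and of 1.75 with 24 higher and 0 lower without WT CD8 arrays 1 and 6. Mki67 changed by 1.10 (adjusted p = 0.375) and by 1.93 without those arrays (adjusted p = 0.0772). With the proliferation mean as a covariate, 7.25% of all genes were called higher and 8.02% lower in lymphomas, and of the members 2 were higher and 1 lower. The part of proliferation and of the other cell types in these differences was not tested beyond the values given.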

How the data were processed

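RNA of 23 samples was hybridised to Affymetrix Mouse 430A 2.0 arrays. Per the labels' extract protocol, the authors ran the scans through RMA, a method of background correction, quantile normalisation and summary per probe set, whose version the sources used here do not give. The deposited table holds linear RMA intensity for 22690 probe sets. Of these, 64 control probe sets were left out, the rest was log2-transformed, and 22626 were tested. Symbols came from the platform annotation (20380 probe sets with 1 gene). Groups were compared in R 4.3.3 by lmFit and eBayes of limma 3.58.1, p-values were adjusted by Benjamini-Hochberg over all probe sets, and the threshold was 0.05. The MEF fit used 9 arrays (6 residual degrees of freedom) after the second set was brought to the first by the offset of the repeated controls (median -0.07), and the T cell fit used 11 (9 degrees). Arrays give no counts, so their number limits the precision: standard errors had a median of 0.0771 for MEFs and 0.236 for T cells. For Ezh2 and the paralogue differences, an exact two-sided permutation of the arrays was added. Intervals cover 95%. Named genes were the members, Smarcb1, Cdkn2a, Kdm6a, Kdm6b, Aebp2, Mki67, the 5 genes most like Ezh2 and up to 3 called genes of each list with the largest change. Cd8b1, Lyz2, Cd79a, Eif2s3y, Xist, Uty, Lcor and Mbd3 were named after their values were seen, as were markers of cell type. The members and lists were chosen with earlier results of these data known. The fit was tested on simulated data. Alternatives left out each array in turn and changed the block, normalisation, offset, filter, trend, weights, probe set rule, array set and covariates.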

Additional observations from a re-analysis of the deposited data

Results flagged for a closer look

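For 5 members the change in Snf5 Ezh2-deficient MEFs differed from the change in Ezh2-deficient MEFs by a test of the difference itself, in a fit where both share the WT arrays. The differences on main probe sets, Snf5 Ezh2-deficient minus Ezh2-deficient, were 0.52 for Ezh2, 0.25 for Eed, 0.37 for Suz12, 0.21 for Rbbp7 and 0.58 for Jarid2 on the log2 scale. The second Eed probe set was at -0.06, and the other Suz12 probe sets ran from -0.02 to 0.40, not all past the threshold. Proliferation genes and, for 2 of the 3 Ezh2-deficient arrays, Y-linked transcripts differed between the same groups, and their part in these values was not tested beyond the covariate fits. Among 20 tests for a single array far from its group, over the 10 members in lymphomas and in WT CD8 arrays, 0 passed. Such a test can miss 2 arrays that lie apart together, as WT CD8 arrays 1 and 6 did in Phf1 (7.70 on both).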

How the results depend on the processing

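Of 810 recomputed changes of single members, 741 kept their direction and side of the threshold, 59 lost the threshold, 10 gained it and 0 reversed. In Ezh2-deficient MEFs, 2 members were lower (2.47% of all genes). It was 3 with 50 added before the log (3.49%), with array weights (4.34%) and with 12 arrays and separate controls (4.34%). That 12-array fit counts the repeated control hybridisations as separate arrays. The count was 1 with the replicate block (1.2% of all genes lower), quantile normalisation repeated (1.76%) and the mean of all probe sets of a gene (2.84%). It was also 1 with each set fitted alone (1.47%) and with Eif2s3y as a covariate (0.379%). It was 0 with the proliferation mean as a covariate, where 1 of 12393 genes was lower, so that count says nothing of the members. Leaving out single arrays gave 1 to 2, with 0.524% to 2.69% of all genes lower. In Snf5 Ezh2-deficient MEFs, 2 were higher (13.2% of all genes), and 1 with the mean of all probe sets (13.9%) or the proliferation covariate (13%). Leaving out single arrays gave 1 to 2 higher and 2 to 3 lower there, with 10.7% to 13.6% of all genes higher and 11% to 14.8% lower. The difference between both effects had 5 members higher (16.3% of all genes), but 3 with 12 arrays and separate controls (9.69%), 2 with the Eif2s3y covariate (8.91%), 0 with the proliferation covariate (1.23%) and 3 to 5 without single arrays. In lymphomas, 2 members were higher and 2 lower (9.13% and 7.71% of all genes). There were 3 and 3 with array weights, where Rbbp7 and Ezh1 passed (13.9% and 12.1% of all genes), and 1 was lower with the proliferation covariate (8.02%). Leaving out single T cell arrays gave 2 to 3 higher and 1 to 3 lower, with 5.98% to 9.74% of all genes higher and 5.38% to 9.16% lower. Calls under the replicate block changed for Rbbp4 in both MEF comparisons, Jarid2 in lymphomas (-1.02, adjusted p = 0.0607) and Ezh1 in lymphomas (-0.82, adjusted p = 0.0276). Same-numbered arrays did not deviate together throughout (correlations of -0.22 to 0.15 in MEFs and 0.08 to 0.31 in T cells), so the numbers were not taken as pairs. The alternatives without WT CD8 arrays 1 and 6 or 3 and 4, with the proliferation mean and, in T cells, with Eif2s3y were chosen after seeing the data. The cause of these shifts was not tested. RMA values hold no detection calls, and the number of arrays limits the precision (median standard error 0.0771 in MEFs and 0.236 in T cells).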
